A study of Mus musculus with 11 samples.

Results

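The transcripts described here are 10 genes of the meiotic divisions and the spindle checkpoint: Ccna1, Cdk1, Ccnb1, Ccnb2, Plk1, Aurkc, Cdc25c, Bub1b, Mad2l1 and Cks2. They were taken by symbol from the 22259 Ensembl genes of the deposited testis count files, and 10 of 10 symbols matched a gene. Testis RNA of adult mice was sequenced in 6 libraries, 3 from wild-type animals (Ccer1+/+) and 3 from animals homozygous for a mutated Ccer1 (Ccer1-/-), all untreated. Ccer1 was mutated with Cas9 and a pair of guide RNAs in C57BL/6J zygotes, so the mutation is present in every cell and is not limited to germ cells. The study obtained several deletion lines and took 1 of them forward for its work on pathology. Whether the sequenced testes came from that line, their age in weeks and whether testes were pooled is not stated in the sources used here. The study describes the samples as independent, and the labels give no litter, so the p-values measure the spread between these samples.

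The meiotic divisions are driven by cyclin-dependent kinase 1 (CDK1), which needs a cyclin partner and the removal of an inhibitory phosphate by the CDC25 phosphatases. In the male germ line the spermatocyte prepares this machinery during a long prophase, divides in close succession at meiosis I and meiosis II, and leaves round spermatids. The spindle checkpoint holds each division until chromosomes are attached, by keeping the anaphase-promoting complex (APC/C) from degrading cyclin B and securin. Each value below is an average over a whole testis, in which fewer cells of a type and less RNA per cell cannot be told apart.

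Several of these genes are textbook targets of the cell cycle genes homology region (CHR), a short promoter element read by the MuvB complexes, and of CCAAT boxes bound by NF-Y. The promoter stretches are shown to let these letters be read in the genes where they were found, with Cks2, which held CCAAT boxes alone, beside them. RefSeq promoter windows of GRCm38.p6, from 250 bases before the transcription start to 50 after it, were at hand for 9 of the 10 genes. Both strands were searched for the CHR forms TTTGAA and TTTAAA, the CCAAT box CCAAT, the cAMP response element TGACGTCA and the E2F core TTTCGCGC. TTTAAA reads the same on both strands and was counted once. A match of letters is a description and not evidence of binding. Capitals mark CHR forms and CCAAT boxes, the latter written ATTGG where they lie on the other strand, and each stretch runs 5′ to 3′ on the gene's strand. The first 4 stretches are the 140 bases before the start, and the last 3 are 30 bases around a CHR form at or after the start.
Cdk1 (chr10:69352913-69353052, minus strand): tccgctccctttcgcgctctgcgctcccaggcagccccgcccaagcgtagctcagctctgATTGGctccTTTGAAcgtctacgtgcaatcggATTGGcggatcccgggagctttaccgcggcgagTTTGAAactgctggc
Ccnb1 (chr13:100786487-100786626, minus strand): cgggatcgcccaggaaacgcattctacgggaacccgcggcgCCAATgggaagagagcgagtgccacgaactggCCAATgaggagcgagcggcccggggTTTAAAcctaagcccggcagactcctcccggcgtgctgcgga
Ccnb2 (chr9:70421555-70421694, minus strand): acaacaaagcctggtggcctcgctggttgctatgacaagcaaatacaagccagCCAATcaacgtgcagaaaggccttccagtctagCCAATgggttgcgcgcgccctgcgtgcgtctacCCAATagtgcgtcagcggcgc
Cks2 (chr13:51645092-51645231, plus strand): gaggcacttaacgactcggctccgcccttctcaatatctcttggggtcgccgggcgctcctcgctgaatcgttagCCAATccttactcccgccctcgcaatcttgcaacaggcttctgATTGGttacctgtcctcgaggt
Ccnb2 at the start (chr9:70421533-70421562, minus strand): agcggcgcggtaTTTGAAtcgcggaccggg
Plk1 (chr7:122159453-122159482, plus strand): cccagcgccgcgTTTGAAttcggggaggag
Bub1b (chr2:118598231-118598260, plus strand): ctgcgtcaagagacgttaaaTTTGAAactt

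A CHR form was found in 5 of the 9 windows (Cdk1, Ccnb1, Ccnb2, Plk1 and Bub1b) and a CCAAT box in 8, all but that of Mad2l1. The background was 32851 RefSeq windows of the same length, without those of chromosome 18. Of these, 27.6% held a CHR form, 37.4% a CCAAT box and 10.7% both, where 5 of the 9 windows held both. At least 2 CCAAT boxes stood in 4 of the 9 windows and in 11.7% of all windows. In Ccnb2 the 3 CCAAT boxes began 87, 54 and 21 bases before the start and a CHR form began at base 5 of the transcript, and in Ccnb1 the boxes began 99 and 67 bases and the CHR form 42 bases before the start. Cks2 held 4 CCAAT boxes and neither CHR form. The E2F core was found in Cdk1 alone among these windows (0.323% of all windows), and TGACGTCA in none of the 9 (1.79% of all windows).

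Each library held 15970289 to 19621550 counts. Ccer1 was at 439, 610 and 529 CPM in the Ccer1+/+ libraries and at 82.1, 93.0 and 88.3 CPM in the Ccer1-/- libraries (replicates 1, 2 and 3 in this order, as in all lists of values below), so the labels were matched by the targeted gene (CPM is the count relative to the library total at the usual CPM scale, after TMM, which sets library factors from the bulk of the genes). A pair of features of the libraries touch every comparison below. On the first principal component (44.7% of the variance over all genes tested), Ccer1+/+ replicates 2 and 3 lay on one side, and Ccer1+/+ replicate 1 lay on the other with the Ccer1-/- libraries. The next component, with 32.1%, set replicate 3 of each genotype apart, and in these libraries macrophage markers were low: the 5 markers summed to 11.3 CPM in Ccer1+/+ replicate 3 and up to 58.2 CPM in the other Ccer1+/+ libraries. Germ cell markers were present throughout, and the 8 spermatocyte markers summed to 5026 to 5541 CPM in Ccer1+/+ and 4885 to 5376 CPM in Ccer1-/- testes. Most of this sum was Ldhc (3457 to 3976 CPM over the 6 libraries). It does not show markers at lower levels, such as Sycp3 (20.5 to 71.3 CPM), described below. Library pairs were also compared by a mean chi-square per gene, the squared departure from the counts expected at equal shares, over those counts. Ccer1-/- replicates 1 and 2 were the closest pair (2.69), and the other pairs ran from 8.40 to 75.1. Why this pair was so close was not tested.

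All 10 genes were measured well above the filter on low counts, from 111 counts for Mad2l1 in its lowest library to 3818 for Ccna1 in its highest. Per kilobase of the longest annotated coding transcript, Ccna1 (122 CPM per kilobase in Ccer1+/+ and 110 in Ccer1-/-), Ccnb2 (94.8 and 93.2) and Cks2 (81.1 and 84.1) were the most abundant. Plk1 (61.8 and 53.8), Ccnb1 (40.0 and 39.8), Aurkc (29.6 and 27.0) and Bub1b (19.5 and 19.3) followed. Cdk1 (9.86 and 10.8), Cdc25c (7.15 and 8.62) and Mad2l1 (5.67 and 7.76) were the least abundant. The order of the mean levels per kilobase was the same in both genotypes. From Cks2 down to Cdk1 each gene exceeded the next in 6 of 6 libraries with no overlap of their ranges. Ccna1 with Ccnb2, Ccnb2 with Cks2, Cdk1 with Cdc25c and Cdc25c with Mad2l1 overlapped in range. Of these, Ccna1 exceeded Ccnb2 and Cdk1 exceeded Cdc25c within 6 of 6 libraries, and the others kept their order in 5 of 6.

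**Figure D1:**
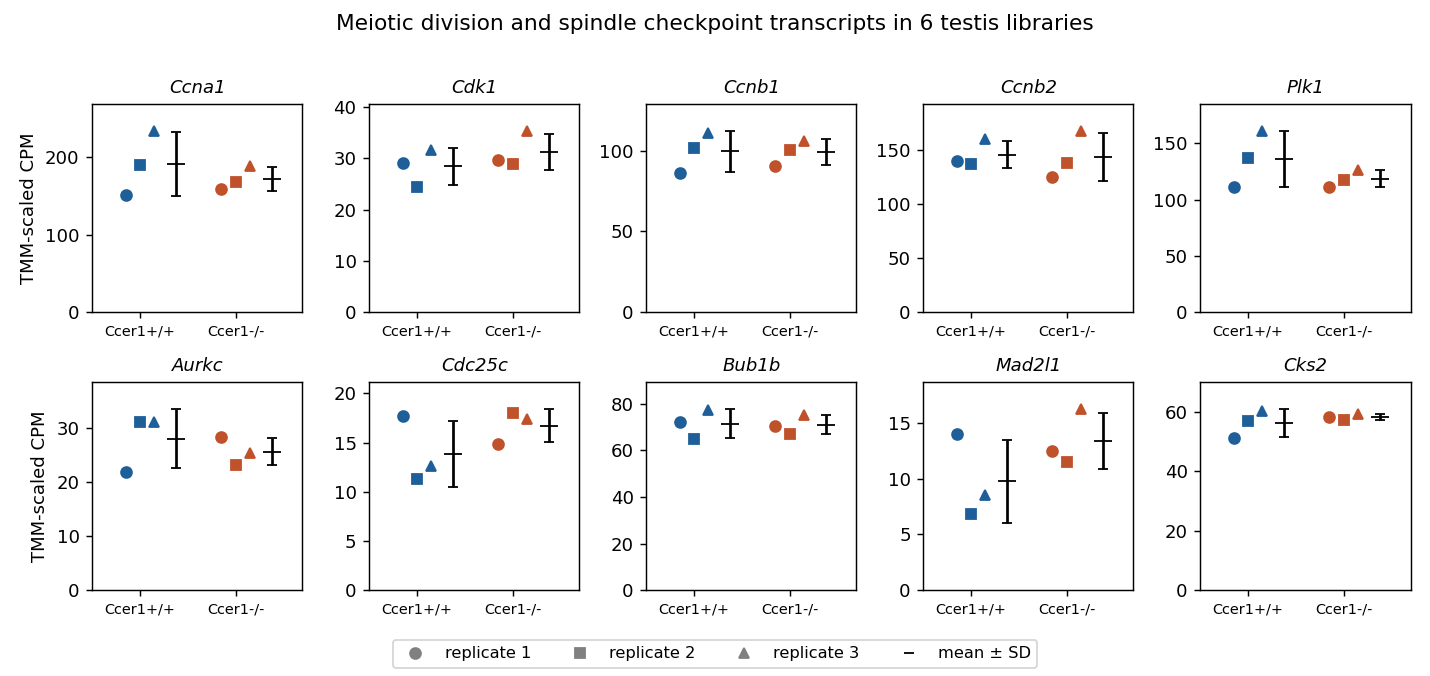
TMM-scaled CPM (vertical axes, from 0) of the 10 genes in each of the 6 testis libraries, with Ccer1+/+ on the left and Ccer1-/- on the right of each panel. Symbols stand for replicate numbers and bars for the mean ± SD (n = 3), and the genotypes overlap in every panel.

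None of the cyclins, nor their kinase, passed the test between genotypes. Ccna1, the germ line cyclin A that male mice need to complete meiosis I, was at 151, 190 and 234 CPM in Ccer1+/+ and at 158, 168 and 189 CPM in Ccer1-/- testes. Its means were 192 ± 41.4 and 172 ± 15.6 CPM (SD, n = 3 each), and the log2 fold change, Ccer1-/- over Ccer1+/+ here and below, was -0.16 (standard error, SE, 0.17, edgeR adjusted p = 0.804). The lowest and the highest of the 6 libraries were both Ccer1+/+, and the genotypes overlapped. Ccnb1, the cyclin B that activates CDK1 at division, was at 86.1, 102 and 111 CPM in Ccer1+/+ and 90.6, 100 and 106 CPM in Ccer1-/- testes. Its log2 fold change was -0.0067 (SE 0.14, 95% interval -0.32 to 0.31), and the Ccer1-/- values lay inside the Ccer1+/+ range. RefSeq lists a transcribed Ccnb1 pseudogene on chromosome 7, with which reads could be shared. Ccnb2, the other B-type cyclin, was at 140, 138 and 161 CPM in Ccer1+/+ and 125, 138 and 168 CPM in Ccer1-/- testes. The log2 fold change was -0.025 (SE 0.14), with the lowest and the highest library both Ccer1-/-.

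Cdk1, the catalytic partner of these cyclins, was at 29.1, 24.5 and 31.7 CPM in Ccer1+/+ and 29.6, 28.8 and 35.3 CPM in Ccer1-/- testes. Its means were 28.4 ± 3.67 and 31.3 ± 3.54 CPM (SD, n = 3 each), and the log2 fold change was 0.14 (SE 0.16). The genotypes overlapped, and replicate 3 was the highest in each. Cks2, a small CDK-binding subunit that mouse germ cells need to pass metaphase I, was at 51.1, 56.9 and 60.3 CPM in Ccer1+/+ and 58.2, 57.2 and 59.2 CPM in Ccer1-/- testes. It was the steadiest of the 10 genes, with a highest over lowest library of 1.18-fold and a log2 fold change of 0.053 (SE 0.13). The 3 Ccer1-/- values fell inside the Ccer1+/+ range.

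None of the other kinases, nor the phosphatase that acts on CDK1, passed the test between genotypes. Plk1, the polo-like kinase that activates CDC25 and builds the spindle, was at 111, 137 and 161 CPM in Ccer1+/+ and 112, 118 and 126 CPM in Ccer1-/- testes. The means were 136 ± 24.8 and 118 ± 7.45 CPM (SD, n = 3 each), and the log2 fold change was -0.20 (SE 0.15, 95% interval -0.55 to 0.15, edgeR adjusted p = 0.786). Ccer1+/+ replicate 1 was the lowest of the 6 libraries, and Ccer1+/+ replicates 2 and 3 were the highest. Aurkc, the Aurora kinase of meiotic chromosomes whose loss in men gives large-headed polyploid sperm, was at 21.8, 31.2 and 31.2 CPM in Ccer1+/+ and 28.3, 23.3 and 25.4 CPM in Ccer1-/- testes. The 3 Ccer1-/- values again lay between Ccer1+/+ replicate 1 and the other Ccer1+/+ libraries (log2 fold change -0.13, SE 0.18). Cdc25c, a phosphatase that removes the inhibitory phosphates of CDK1, was at 17.7, 11.3 and 12.7 CPM in Ccer1+/+ and 14.9, 17.97 and 17.4 CPM in Ccer1-/- testes. Here Ccer1+/+ replicate 1 stood above the other Ccer1+/+ libraries and inside the Ccer1-/- range, with a log2 fold change of 0.27 (SE 0.21, 95% interval -0.20 to 0.74).

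The checkpoint pair differed from each other in spread. Bub1b, which encodes BUBR1 of the mitotic checkpoint complex, was at 72.0, 65.0 and 77.2 CPM in Ccer1+/+ and 70.4, 67.2 and 75.3 CPM in Ccer1-/- testes. The log2 fold change was -0.0097 (SE 0.13, 95% interval -0.30 to 0.28), and the Ccer1-/- values lay inside the Ccer1+/+ range. Mad2l1, which encodes the MAD2 protein that binds CDC20 at unattached kinetochores, was at 14.0, 6.86 and 8.51 CPM in Ccer1+/+ and 12.5, 11.5 and 16.2 CPM in Ccer1-/- testes. Its means were 9.78 ± 3.72 and 13.4 ± 2.50 CPM (SD, n = 3 each), and the log2 fold change was 0.45 (SE 0.28, 95% interval -0.19 to 1.08). It had the largest log2 fold change and the largest range of the 10, 2.36-fold from the lowest to the highest library, and Ccer1+/+ replicate 1 stood inside the Ccer1-/- range.

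No gene of the 10 passed the test between the genotypes. At an edgeR adjusted p under 0.05, 0 of 10 were called where 0.00661% of the 15139 genes tested were (Ccer1 alone), and DESeq2 called 0 of 10. At an unadjusted p under 0.05, 0 of 10 passed in edgeR where 2.89% of all genes tested did. The genotypes overlapped for 10 of 10, against 8.34% of all genes tested whose genotypes did not overlap. In a two-sided exact permutation test of mean CPM the p-values ran from 0.30 to 1.00, where 3 libraries against 3 cannot go below 0.10. The median log2 fold change over the 10 was -0.0082, with 4 positive and 6 negative, and that over all genes tested was 0.039. For 8 of the 10 the 95% interval lay within a 1.5-fold difference in either direction, and the intervals of Cdc25c and Mad2l1 reached beyond it on the higher side. Each interval is for a single gene, without adjustment over all genes tested, so it is not a limit of detection. Differences inside these intervals are not excluded with 3 libraries a genotype.

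**Figure D2:**
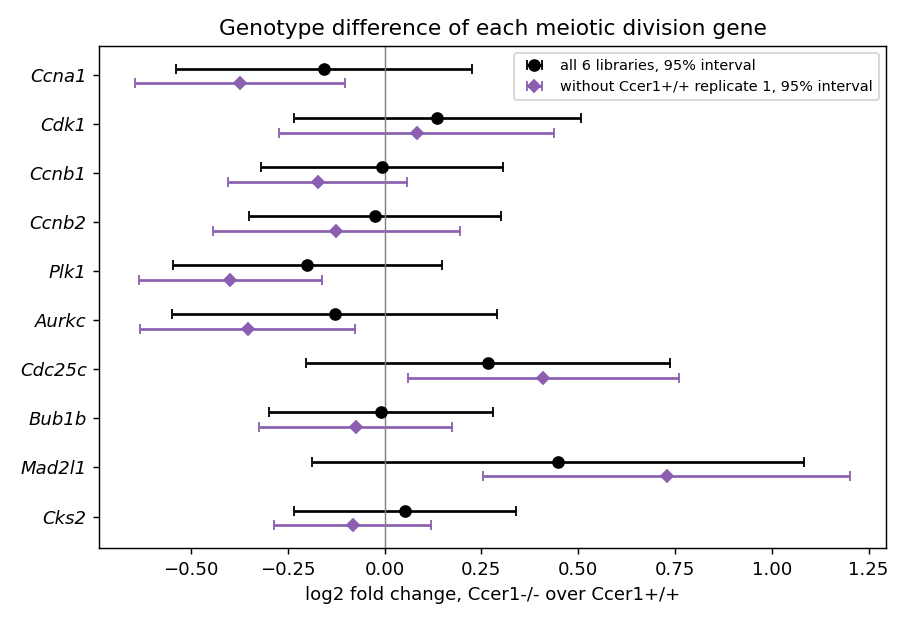
Log2 fold change of each gene, Ccer1-/- over Ccer1+/+, with its 95% interval from edgeR, over all 6 libraries (circles) and without Ccer1+/+ replicate 1 (diamonds). Over all libraries each interval includes 0, and without that replicate those of Ccna1, Plk1, Aurkc, Cdc25c and Mad2l1 do not, of which Plk1 (-0.40) and Mad2l1 (0.73) passed after adjustment.

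Calls among these genes depended on Ccer1+/+ replicate 1. It was below both other Ccer1+/+ libraries for 5 genes (Ccna1, Ccnb1, Plk1, Aurkc and Cks2) and above both for Cdc25c and Mad2l1, and it lay inside the Ccer1-/- range for 5 of 10 genes, as for 49.4% of all genes tested. Without it, Plk1 was called lower (log2 fold change -0.40, edgeR adjusted p = 0.0292) and Mad2l1 higher (0.73, 0.0403), so that 1 of 10 was called in each direction where 9.21% of all genes were called higher and 12.5% lower. Ccna1 (-0.37, 0.0565), Aurkc (-0.35, 0.0732) and Cdc25c (0.41, 0.0925) did not pass after adjustment. The smallest adjusted p of any of the 10 genes when another library was left out was 0.926. The base composition of the transcripts is given beside these calls, and its part in them was not tested. Mad2l1 has the lowest GC content of the 10 (40.8%) and Plk1 the highest (56.0%). The level in Ccer1+/+ replicate 1 was set against the mean of the other Ccer1+/+ libraries, as a log2 difference. Over the 10 genes this difference had a Spearman's rho with GC content of -0.64, and over 14460 genes one of -0.68. The genes share libraries and are no replicates. Ccnb1 (44.2%) and Cks2 (44.9%), the next lowest in GC content after Mad2l1, had differences of -0.30 and -0.20. Mad2l1 had one of 0.86 and Plk1 one of -0.42. With a curve on GC content and transcript length removed from each library, the log2 fold changes over all 6 libraries were -0.028 for Plk1 and 0.17 for Mad2l1. With that curve and without Ccer1+/+ replicate 1, a setting chosen after the values were seen, neither was called (-0.12 and 0.21, adjusted p = 0.677 and 0.511) and Ccnb1 was called lower (-0.48, 0.0420), 1 of 10 beside 1.92% of all genes called in either direction.

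Proportions between the genes within a library are given next, where an exact test of 3 libraries against 3 cannot go below 0.10 and so could not pass 0.05. The log2 ratio of Ccnb1 to Ccnb2 CPM was -0.56 ± 0.14 in Ccer1+/+ and -0.53 ± 0.11 in Ccer1-/- testes (SD, n = 3 each; two-sided exact permutation p = 0.70). That of Ccna1 to Ccnb1 was 0.93 ± 0.13 and 0.79 ± 0.043 (exact permutation p = 0.20), and that of Mad2l1 to Bub1b was -2.93 ± 0.49 and -2.42 ± 0.18 (exact permutation p = 0.30). Of 5 ratios compared, also Cks2 to Cdk1 and Cdc25c to Plk1, none had a Benjamini-Hochberg adjusted exact permutation p below 0.667. Across the libraries the mean log2 level of the 10 genes, relative to the mean of the 6 libraries, was -0.058, -0.11 and 0.094 for Ccer1+/+ and -0.045, -0.025 and 0.15 for Ccer1-/- testes (replicates 1, 2 and 3). Replicate 3 was the highest in each genotype, for 7 of 10 genes in Ccer1+/+ and 8 of 10 in Ccer1-/-. In both replicate 3 libraries the macrophage markers were low, at -1.25 and -1.31 on the same scale, as were those of the peritubular myoid cells (-1.07 and -1.12). Endothelial (-0.78 and -0.77), Sertoli (-0.31 and -0.41) and Leydig cell markers (-0.32 and -0.25) were also below the mean of the 6 libraries there. The part of these cell types in the level of the 10 genes was not tested.

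Bub1b (root mean square distance 0.050 on the log2 scale), Cks2 (0.078), Ccnb2 (0.080), Cdk1 (0.083) and Ccnb1 (0.099) followed the mean profile of the 10 genes most closely. Mad2l1 (0.39), Cdc25c (0.25) and Aurkc (0.21) followed it least. Of 8949 other genes averaging 10 CPM or more, the nearest to that profile over the 6 libraries were Rpa1, the large subunit of the single-strand DNA-binding protein RPA (distance 0.020), Acbd6 (0.0212), Eif3g, a translation initiation subunit (0.0215), Oit1 (0.0236) and the nuclear import receptor gene Kpnb1 (0.0238). The profile is nearly flat, so many genes lie close to it.

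**Figure D3:**
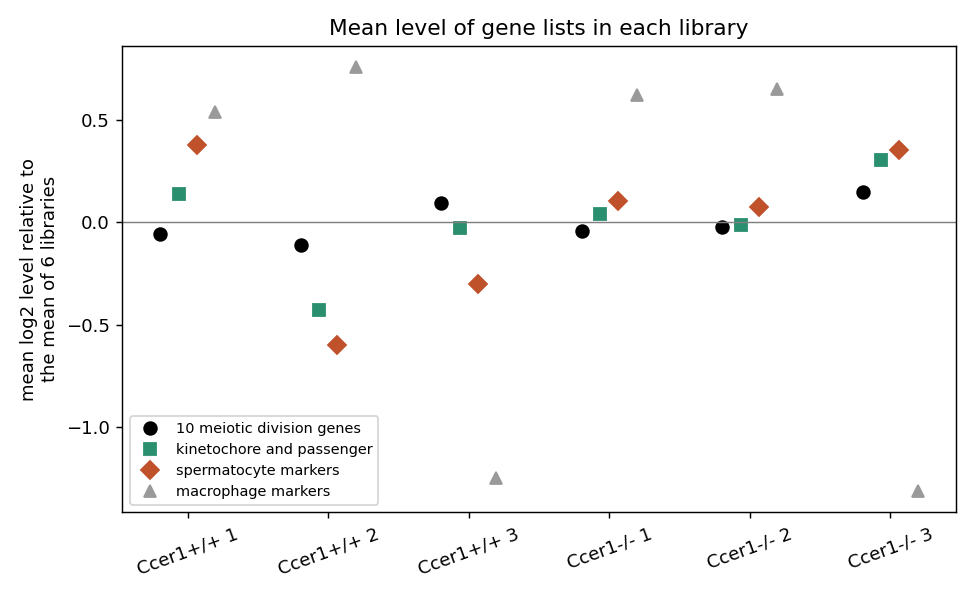
Mean log2 level of 4 gene lists in each of the 6 libraries (horizontal axis), relative to the mean of all 6 libraries (vertical axis). The 10 meiotic division genes stay between -0.11 and 0.15, the spermatocyte markers run from -0.60 to 0.38, and the macrophage markers fall to -1.25 and -1.31 in replicate 3 of each genotype.

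The spermatocyte markers did not share this profile. Their mean log2 level on the same scale was 0.38, -0.60 and -0.30 in Ccer1+/+ and 0.10, 0.071 and 0.35 in Ccer1-/- testes. Sycp3, a protein of the synaptonemal complex named after its values were seen, was at 71.3, 20.5 and 26.2 CPM in Ccer1+/+ and 52.7, 51.2 and 71.2 CPM in Ccer1-/- testes. Ldhc, the lactate dehydrogenase of spermatocytes and spermatids, was at 3457, 3654 and 3976 CPM in Ccer1+/+ and 3468, 3614 and 3815 CPM in Ccer1-/-. Sycp3 was lowest in Ccer1+/+ replicates 2 and 3, as were Sycp1, Sycp2, Hormad1 and Smc1b. Stag3, Piwil1 and Ldhc were not, so markers of this cell type disagreed among themselves. The further markers were named after their values were seen. Of the 8 markers, 0 were called over all libraries. Without Ccer1+/+ replicate 1, 5 were called higher and 1 lower, beside 9.21% and 12.5% of all genes tested.

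Several of the 10 genes belong to families with a widely used somatic relative. The relatives are named here for that kinship, outside the rule for named genes. In Ccer1+/+ testes the germ line cyclin Ccna1 was at 122 CPM per kilobase and Ccna2, the cyclin A of dividing cells, at 2.69. Cks2 was at 81.1 and its relative Cks1b at 6.54 CPM per kilobase. Among Aurora kinases Aurka, the spindle pole form, was at 87.2, Aurkc at 29.6 and Aurkb, the mitotic passenger form, at 6.58 CPM per kilobase. Among CDC25 phosphatases Cdc25a was at 24.6, Cdc25c at 7.15 and Cdc25b at 0.597 CPM per kilobase. The same orders held in Ccer1-/- testes, where Ccna2 was at 2.59, Cks1b at 7.11, Aurka at 86.4, Aurkb at 6.01, Cdc25a at 26.1 and Cdc25b at 0.632 CPM per kilobase. Relatives of similar sequence may share reads. None of these relatives was called between the genotypes (edgeR adjusted p from 0.846 to 0.982).

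The wider division machinery was read through 84 genes in 6 lists by role, all of which were tested. With edgeR over all genes, 0 were called in either direction (DESeq2 also called 0). At an unadjusted p under 0.05 in edgeR, 1 was higher and 1 lower, where 2.89% of all genes tested passed in either direction. Of the 84, the log2 fold change was above 0 for 56 and below it for 28, and its median was 0.097, beside 55.4% positive and a median of 0.039 over all genes tested. The genotypes did not overlap for 4 genes on the higher and 1 on the lower side, where 8.34% of all genes tested did not overlap in either direction.

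Among 14 genes that control CDKs (median log2 fold change 0.11), Hspa2, a testis chaperone that in mice assembles CDK1 with cyclin B, was at 1249, 1800 and 1780 CPM in Ccer1+/+ and 1227, 1269 and 1264 CPM in Ccer1-/- testes (log2 fold change -0.36, unadjusted p = 0.0412). Ccer1+/+ replicate 1 lay inside the Ccer1-/- range. Ccnb3, a further B-type cyclin, was at 3.34, 1.73 and 1.53 CPM in Ccer1+/+ and 2.89, 2.79 and 5.34 CPM in Ccer1-/- (0.73, SE 0.39), and Arpp19, an inhibitor of the phosphatase that opposes CDK1, had one of 0.34 (SE 0.20). Among 12 other checkpoint genes (median 0.16), Mad1l1, whose protein recruits MAD2 to kinetochores, had a log2 fold change of -0.40 (SE 0.21), opposite in sign to Mad2l1. Zwint, a kinetochore protein, was at 53.1, 44.9 and 44.4 CPM in Ccer1+/+ and 57.8, 57.6 and 53.3 CPM in Ccer1-/- testes. The groups did not overlap (0.24, SE 0.13), and the lowest Ccer1-/- value was close to Ccer1+/+ replicate 1. Trip13, an ATPase that remodels MAD2, had a log2 fold change of 0.34 (SE 0.20).

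Among 15 genes of the kinetochore and the chromosomal passenger complex, the list with the highest median (0.23), Spc25 and Spc24, partners in the NDC80 complex, had log2 fold changes of opposite sign. Spc25 was at 17.8, 6.74 and 9.61 CPM in Ccer1+/+ and 15.0, 15.7 and 20.5 CPM in Ccer1-/- testes (0.58, SE 0.33). Spc24 was at 9.33, 16.1 and 14.7 CPM in Ccer1+/+ and 8.42, 10.9 and 10.4 CPM in Ccer1-/- (-0.43, SE 0.24). In both, Ccer1+/+ replicate 1 stood with the Ccer1-/- libraries. Sgo2a, the shugoshin that protects centromeric cohesin at meiosis I, had a log2 fold change of 0.47 (SE 0.26). Centred on the 6 libraries, the mean log2 level of this list ran from -0.43 (Ccer1+/+ replicate 2) to 0.30 (Ccer1-/- replicate 3), a wider range than that of the 10 genes.

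Among 18 genes of the APC/C and of sister separation (median 0.095), Anapc10, a substrate-recognition subunit, was at 15.5, 10.5 and 12.2 CPM in Ccer1+/+ and 16.4, 16.3 and 21.6 CPM in Ccer1-/- testes (log2 fold change 0.50, unadjusted p = 0.0385), without overlap. Fzr1, the CDH1 activator that male germ cells need for meiotic prophase in mice, was at 183, 332 and 297 CPM in Ccer1+/+ and 198, 208 and 208 CPM in Ccer1-/- (-0.40, SE 0.20), and Fbxo5, the APC/C inhibitor EMI1, had means of 1.06 and 1.79 CPM. Among 13 genes of the spindle and cytokinesis (median 0.10), Ect2 and Racgap1, which act together at the cleavage furrow, had log2 fold changes of 0.40 (SE 0.24) and -0.19 (SE 0.13), and the motor gene Kif18a one of 0.41 (SE 0.27). Among 12 transcription regulators of these genes (median -0.073), Mybl1, the A-MYB factor of pachytene spermatocytes, was at 48.1, 17.99 and 25.5 CPM in Ccer1+/+ and 42.2, 41.6 and 47.8 CPM in Ccer1-/- testes (0.52, SE 0.31). Its highest library was Ccer1+/+ replicate 1. Lin54, the MuvB subunit that binds the CHR, had a log2 fold change of 0.28 (SE 0.17) and E2f4, a repressor partner of MuvB, one of -0.32 (SE 0.17).

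**Figure D4:**
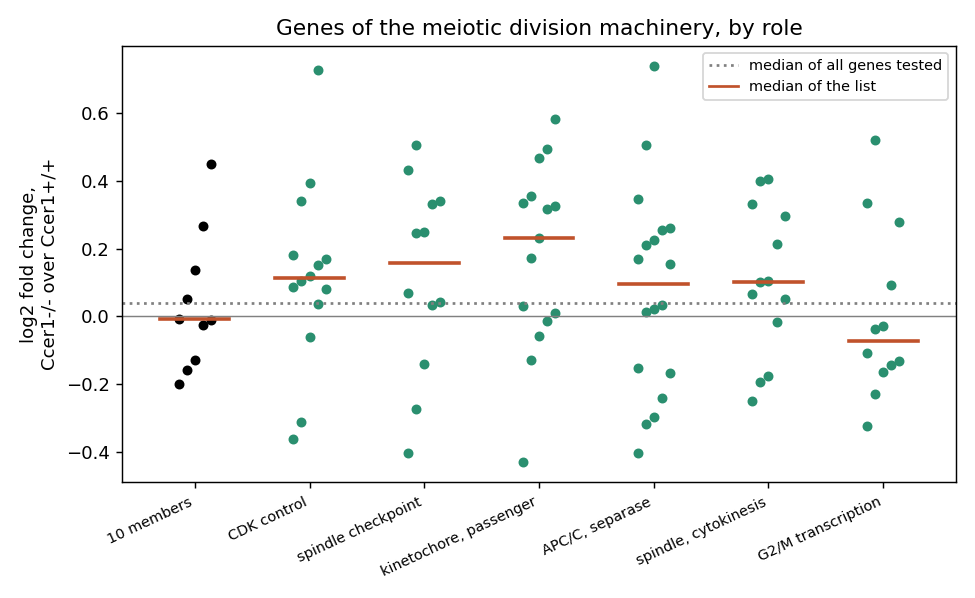
Log2 fold change, Ccer1-/- over Ccer1+/+, of the 10 genes and of the 84 further genes of the division machinery by role, 1 point a gene. Bars give list medians, from -0.073 for the transcription regulators to 0.23 for the kinetochore and passenger genes, and the dotted line the median of all genes tested (0.039).

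Without Ccer1+/+ replicate 1, 13 of the 84 were called higher and 16 lower, beside 9.21% and 12.5% of all genes tested. Hspa2, Mad1l1, Fzr1, E2f4, Spc24 and Racgap1 were then among the lower genes and Mybl1, Ect2, Spc25, Sgo2a, Arpp19 and Anapc10 among the higher, each with the direction it had over all libraries. With the curve on GC content and length also removed, 0 of the 84 were called higher and 2 lower, beside 1.92% of all genes called in either direction. The lower genes were Bub3 (-0.58) and Tfdp1 (-0.53), both named after their values were seen. Proliferation markers of dividing cells in general, 12 genes such as those of the MCM helicase, had 6 positive and 6 negative log2 fold changes and a median of 0.021.

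On GRCm38, Ccna1 (ENSMUSG00000027793) lies on chromosome 3 from 55045469 to 55057634, Cdk1 (ENSMUSG00000019942) on chromosome 10 from 69335146 to 69352912, and Ccnb2 (ENSMUSG00000032218) on chromosome 9 from 70407689 to 70421554. Ccnb1 (ENSMUSG00000041431) lies on chromosome 13 from 100778739 to 100786486 and Cks2 (ENSMUSG00000062248) on the same chromosome from 51645232 to 51650662. Plk1 (ENSMUSG00000030867) and Aurkc (ENSMUSG00000070837) lie on chromosome 7 from 122159435 to 122169884 and from 6995347 to 7003091. Bub1b (ENSMUSG00000040084) lies on chromosome 2 from 118598202 to 118641592, Mad2l1 (ENSMUSG00000029910) on chromosome 6 from 66535221 to 66541107, and Cdc25c (ENSMUSG00000044201) on chromosome 18 from 34732993 to 34751564. Each count is summed over a whole gene, so the values do not separate exons, untranslated regions or isoforms.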

How the data were processed

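The files deposited by the authors give 22259 Ensembl genes with an estimated count in each library, unscaled. Tools listed by the submitters are HISAT2, StringTie (1.3.1), Bowtie2 (2.2.8) and fastp (0.18.0), with the build GRCm38 (mm10). The counting program and its strand setting were not given in the sources used here. Values were rounded to whole numbers. Genes passed filterByExpr (minimum count 10, minimum total 15), which left 15139 genes, and were scaled by TMM. Genotype was tested in R 4.3.3 with the robust quasi-likelihood F test of edgeR 4.0.16 (two-sided, no covariate), with Benjamini-Hochberg adjustment over all genes tested. The procedure was run on simulated counts with the same dispersion for all genes, no outlying library and no trend with GC content. That run therefore does not cover the library differences described above. A standard error is the log2 fold change over the root of F. Levels per kilobase and GC content use the longest coding transcript annotated on NCBIM37, which matched 95.5% of genes tested, and positions and promoters come from RefSeq on GRCm38.p6.

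The 10 genes, the lists and the tests were chosen with earlier results of these data known. Named genes are the 10, Ccer1, the 3 genes with the smallest p of each role list and the 5 genes nearest in profile, with the exceptions stated where they occur. Alternatives were the size factors of DESeq2, library totals, no filter, 10 counts in every library, the test of DESeq2 1.42.0, a block for replicate number, a curve on GC content and length (natural splines of 5 degrees of freedom, removed as an offset) and each library left out. The last 2 together were added after the values were seen. The replicate numbers were treated as names only in the main test, since the labels do not say whether libraries of the same number belong together. Correlations between same-numbered libraries are given at the end. The sperm Hi-C samples were not analysed here.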

Additional observations from a re-analysis of the deposited data

How the results depend on the processing

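With 3 libraries a genotype the test rests on few degrees of freedom. Mad2l1 and Cdc25c had the widest intervals of the 10 (SE 0.28 and 0.21). With the curve on GC content and length their SE was 0.15 and 0.17. Both were at under 20 CPM, and the part of their level in these widths was not tested. With the same curve the SE of Ccnb1 rose from 0.138 to 0.169, the largest of the 10 in that setting. Over all genes tested, edgeR called 1 gene lower (Ccer1) and 0 higher, and 438 had an unadjusted p under 0.05. DESeq2 called 1 higher and 4 lower. When 1 library was left out, counts ran from 0 to 1414 genes higher and from 1 to 1923 lower, from 0 to 1 of the 10 genes in each direction, and from 0 to 13 higher and 0 to 16 lower of the 84 others. The highest counts came without Ccer1+/+ replicate 1. The median of the 10 genes ran from -0.12 (without Ccer1-/- replicate 3) to 0.016. With the GC and length curve and without Ccer1+/+ replicate 1, 82 genes were higher and 212 lower, 0 and 1 of the 10, 0 and 2 of the 84, and the median of the 10 was -0.15.

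Signs turned for several fold changes. Over library totals Ccnb1 (0.031), Ccnb2 (0.010) and Bub1b (0.025) turned positive. With the curve on GC content and length Bub1b turned positive (0.018) and Cks2 negative (-0.083). Cks2 was also negative without Ccer1+/+ replicate 1 (-0.082), Ccer1-/- replicate 1 (-0.0016) or Ccer1-/- replicate 3 (-0.024). Cdk1 was negative without Ccer1+/+ replicate 2 (-0.0097) or Ccer1-/- replicate 3 (-0.022). Without Ccer1+/+ replicate 3, Ccnb1 (0.029), Ccnb2 (0.00078) and Bub1b (0.0036) turned positive, and Ccnb2 did without Ccer1-/- replicate 1 (0.012). In the added setting Cdk1 (-0.063), Cks2 (-0.25), Arpp19 (-0.012), Zwint (-0.12) and Lin54 (-0.17) turned negative. In that setting Ccnb1 was -0.48, its lowest value. With only a library left out, Cdk1 ran from -0.022 to 0.18, Ccnb1 from -0.17 to 0.029, Ccnb2 from -0.21 to 0.012, Bub1b from -0.12 to 0.0036 and Cks2 from -0.082 to 0.059. The cause was not tested. With a block for replicate number 1 gene was called, 0 of the 10 genes passed, and their median was -0.0050. The correlations of same-numbered deviations over all genes were 0.065, 0.35 and 0.47 for numbers 1, 2 and 3. Each correlated best with its own number except Ccer1-/- replicate 1, which correlated best with Ccer1+/+ replicate 2 (0.27).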
